A study of Mus musculus with 4 samples.

Results

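The core circadian clock genes were measured as transcripts in mouse primary cells labelled T-helper 17 (Th17), the CD4 T cells that make interleukin 17. The 10 genes, Clock, Arntl, Per1, Per2, Per3, Cry1, Cry2, Dbp, Tef and Hlf, were taken from a list by their symbols, and all 10 were found among the 50600 genes of the deposited tables. The cells came from strain C57BL/6NJ, as 4 libraries numbered 1 to 4 as biological replicates, which form 1 group. Each library has its own biosample record, and all share 1 donor record. The labels name no other genotype, allele or agent, give age as unknown and sex as not collected, point to a CD4 T cell differentiation protocol, and state no time of day for the harvest. With no second group, the comparisons are between genes within a library and between the 4 libraries. Nothing in the labels says that the libraries came from separate animals, so p-values measure only the spread between these 4 samples, which may be partly technical.

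The clock is a feedback loop of transcription. CLOCK and BMAL1, the product of Arntl, bind E-box elements and activate the Per and Cry genes, whose proteins return to the nucleus and inhibit CLOCK and BMAL1. In a second loop the nuclear receptors REV-ERB and ROR repress and activate Arntl, and in an output branch the basic leucine zipper proteins DBP, TEF and HLF activate genes with D-box elements, which NFIL3 represses. T cells carry this clock, and in mouse T cells REV-ERB and NFIL3 are known to act on the Th17 programme.

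The libraries held between 29041979 and 48808978 counted fragments. Levels are given as TPM, a transcript count divided by the gene's exon length and scaled to a common total per library, which allows levels to be compared between genes. The T-cell markers were all present, with 8 of 8 genes at 1 TPM or more in every library. Of 7 Th17 markers 2 reached that level, Il17a and Il17f, while Il23r and Il22 had 8 counts each over all 4 libraries. Il17a itself was at 6.36, 4.30, 3.06 and 3.17 TPM, and the other 5 of the 7 fell short of 1 TPM in at least 1 library. Marker sums of other lineages stayed between 2.51 and 3.73 TPM for 5 B-cell genes and between 1.55 and 2.99 TPM for 7 myeloid genes. Of the myeloid genes, Itgam was at 1.36 to 1.89 TPM and so passed 1 TPM in every library. Lyz2 reached 0.941 TPM in replicate 4, and Cd14 was at 0 in every library. Cd8b1 carried nearly all of the 40.4 to 47.9 TPM summed over 5 CD8 and NK genes. In bulk RNA, fewer cells of a type and less RNA per cell cannot be told apart.

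Promoter windows show where elements named for the clock lie next to these genes. Windows of 300 bases, from 250 before to 50 after a start site, came from RefSeq (GRCm38.p6, the build of the deposited coordinates) and were found for 9 of the 10 genes, all but Per2, as 14 windows. Searched on both strands were the E-box CACGTG, the D-box TTATGTAA or TTACGTAA, the ROR element core TAGGTCA, the cAMP element TGACGTCA, the heat shock element GAANNTTC and the palindromic glucocorticoid element. The 5 windows below are given because Per1 and Dbp had the widest spread among libraries relative to their abundance, Cry1 has the highest level, and Per3 and Arntl hold elements of the output and nuclear receptor loops. Capitals mark matched letters, and no 2 matches overlapped.
Per1, chr11:69098699-69098998, plus strand: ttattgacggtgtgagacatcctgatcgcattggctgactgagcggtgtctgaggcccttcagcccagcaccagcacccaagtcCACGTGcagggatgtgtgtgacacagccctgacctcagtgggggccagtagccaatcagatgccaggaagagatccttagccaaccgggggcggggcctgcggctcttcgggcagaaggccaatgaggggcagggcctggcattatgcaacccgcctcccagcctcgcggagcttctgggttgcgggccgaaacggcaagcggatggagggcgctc
Cry1, chr10:85185005-85185304, minus strand: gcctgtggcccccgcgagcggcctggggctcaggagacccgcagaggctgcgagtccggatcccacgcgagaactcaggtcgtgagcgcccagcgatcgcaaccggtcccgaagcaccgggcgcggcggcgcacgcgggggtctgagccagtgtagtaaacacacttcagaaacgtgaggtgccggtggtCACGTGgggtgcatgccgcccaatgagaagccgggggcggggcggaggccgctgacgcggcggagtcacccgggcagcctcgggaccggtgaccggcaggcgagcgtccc
Per3, chr4:151044616-151044915, minus strand: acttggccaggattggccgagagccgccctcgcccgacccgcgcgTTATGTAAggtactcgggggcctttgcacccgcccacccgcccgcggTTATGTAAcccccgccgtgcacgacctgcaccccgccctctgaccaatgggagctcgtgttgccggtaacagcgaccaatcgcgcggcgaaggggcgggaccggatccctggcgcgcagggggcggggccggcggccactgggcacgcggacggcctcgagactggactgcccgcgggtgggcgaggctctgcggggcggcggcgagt
Arntl, chr7:113207261-113207560, plus strand: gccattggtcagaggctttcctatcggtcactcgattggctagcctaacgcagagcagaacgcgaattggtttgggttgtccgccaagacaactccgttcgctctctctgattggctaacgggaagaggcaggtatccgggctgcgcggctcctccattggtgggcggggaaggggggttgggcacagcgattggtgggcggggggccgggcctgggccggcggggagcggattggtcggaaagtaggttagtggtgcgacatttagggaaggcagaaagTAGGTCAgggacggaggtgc
Dbp, chr7:45704997-45705296, plus strand: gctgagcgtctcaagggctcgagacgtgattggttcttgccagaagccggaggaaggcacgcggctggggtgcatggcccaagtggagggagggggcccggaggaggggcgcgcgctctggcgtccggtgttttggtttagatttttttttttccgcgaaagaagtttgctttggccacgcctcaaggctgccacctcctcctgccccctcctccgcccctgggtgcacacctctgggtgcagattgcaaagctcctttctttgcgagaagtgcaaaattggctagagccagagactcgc

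The windows of Per1 and Cry1 shown above each held 1 E-box, whose first base lies at -166 and -60 from the start site. The other Per1 window held no match, and both Tef windows held 1 E-box each. Among all 32851 windows, 7.15% hold an E-box. Per3 held 2 D-boxes, at -205 and -158 from its start, beside 1.06% of all windows with at least 1. One of the 2 Arntl windows held the ROR core 30 bases after its start site, beside 2.61% of all windows. Hlf held the cAMP element, which 1.79% of windows have. Neither the heat shock element, found in 7.86% of windows, nor the glucocorticoid element, found in 0.475%, matched any member's window. In the windows of Clock, Cry2 and Dbp none of these letters were found. A match is a run of letters and no evidence of binding.

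Most of the clock was expressed at moderate levels. At least 1 TPM in every library was reached by 8 of 10 genes, beside 45.6% of all 21764 protein-coding genes, and the 10 genes had a median of 15.2 TPM. Cry1 and Per1 led, Per3 lay near 1 TPM and Hlf was at the edge of detection. The sum of the 10 was 196 ± 12.5 TPM (SD, n = 4).

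The activators sat in the middle of the members by level. Clock (ENSMUSG00000029238, chromosome 5, 76209868 to 76304792, minus strand, mm10), the basic helix-loop-helix partner with acetyltransferase activity, was at 12.2, 11.4, 12.2 and 11.4 TPM in replicates 1 to 4. Arntl (ENSMUSG00000055116, chromosome 7, 113207465 to 113314126, plus strand), its obligate partner, was at 11.4, 13.8, 13.1 and 13.6 TPM. By union exon length the partners were thus close in level, with Arntl lowest in replicate 1, the only library in which Clock exceeded it. The log2 ratio of Clock to Arntl was -0.13 ± 0.17 (n = 4), which did not exceed its spread (exact two-sided sign-flip permutation p = 0.25). It was -0.97 ± 0.17 with the length of the longest coding transcript, a setting chosen once the data had been seen (exact sign-flip permutation p = 0.13). Their paralogues were scarce. Npas2, which can replace Clock, was at 0.540 ± 0.0906 TPM, and Clock exceeded it 16.4-fold to 22.8-fold as a ratio of TPM + 0.1. The mean log2 ratio of 4.23 on that scale became 3.06 with a pseudocount of 1. Arntl2 had 0, 5, 7 and 11 counts, a mean of 0.0811 TPM.

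Of the Period genes, which encode the inhibitors with PAS domains, Per1 made up 87.7% ± 1.89 of the summed TPM. Per1 (ENSMUSG00000020893, chromosome 11, 69095217 to 69109960, plus strand) stood at 43.9, 62.0, 40.5 and 45.9 TPM. Per2 (ENSMUSG00000055866, chromosome 1, 91415982 to 91459324, minus strand) stood at 5.43, 5.47, 5.21 and 6.05 TPM. Per1 was high in replicate 2, and Per2 varied little. Per3 (ENSMUSG00000028957, chromosome 4, 151003652 to 151044665, minus strand), which is less needed for rhythm than the others in mice, was at 0.800, 1.12, 1.33 and 0.974 TPM from 64, 107, 182 and 121 counts. Per1 exceeded Per2 by 3.08 ± 0.27 and Per3 by 5.38 ± 0.38 in log2(TPM + 0.1), with the same sign in 4 of 4 libraries. With a pseudocount of 1 the difference from Per3 was 4.56. For both, the exact sign-flip permutation p was 0.13, the smallest that 4 libraries allow (adjusted p = 0.141 over 9 gene pairs).

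The Cryptochrome genes encode the stronger repressors of CLOCK and BMAL1. Cry1 (ENSMUSG00000020038, chromosome 10, 85131700 to 85185064, minus strand) stood at 46.6, 51.2, 44.6 and 51.6 TPM. Cry2 (ENSMUSG00000068742, chromosome 2, 92403646 to 92434043, minus strand) stood at 17.9, 18.7, 16.3 and 16.4 TPM. Cry1 stood above Cry2 in every library, by 2.60-fold to 3.13-fold as a ratio of TPM + 0.1, and supplied 73.7% ± 1.53 of their sum (exact sign-flip permutation p = 0.13, adjusted p = 0.141).

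The output factors ranged from Dbp and Tef, both well expressed, down to Hlf. Dbp (ENSMUSG00000059824, chromosome 7, 45705088 to 45710203, plus strand) stood at 33.25, 27.0, 32.5 and 23.3 TPM. Tef (ENSMUSG00000022389, chromosome 15, 81802421 to 81826861, plus strand) stood at 22.1, 23.8, 21.7 and 19.5 TPM. Dbp was thus higher in replicates 1 and 3 than in replicates 2 and 4, and exceeded Tef in all 4. The log2 ratio of Tef to Dbp was -0.40 ± 0.21 (exact sign-flip permutation p = 0.13, adjusted p = 0.141). Hlf (ENSMUSG00000003949, chromosome 11, 90336536 to 90390895, minus strand), best known from liver and brain in mice, had 6, 6, 3 and 15 counts, or 0.101 ± 0.0585 TPM. Its coefficient of variation was 58.0%, where counting alone gives 42.8%. Tef exceeded Hlf by 6.81 ± 0.51 in log2(TPM + 0.1), and by 4.37 with a pseudocount of 1.

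In order of mean level the genes were Cry1 (48.5 ± 3.45 TPM), Per1 (48.1 ± 9.54), Dbp (28.999 ± 4.72), Tef (21.7 ± 1.78), Cry2 (17.3 ± 1.13), Arntl (12.99 ± 1.08), Clock (11.8 ± 0.479), Per2 (5.54 ± 0.358), Per3 (1.06 ± 0.226) and Hlf. Of the 9 pairs of neighbours 7 kept their order in all 4 libraries with a mean difference above its SD. Cry1 and Per1 did not differ beyond their spread, at a log2 difference of 0.03 ± 0.21, and by this length nor did Arntl and Clock. The exact sign-flip permutation p was 0.13, the smallest possible, for each of the 7 (adjusted p = 0.161). With the length of the longest coding transcript in place of the union of all exons, Arntl moved from 12.99 to 24.0 TPM, away from Clock at 12.1 TPM, and passed Cry2 at 20.1 TPM, and Per1 at 42.3 TPM passed Cry1 at 39.1 TPM. The order of Arntl and Cry2 and of Per1 and Cry1, and the gap between Arntl and Clock, thus changed with the length used.

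**Figure D1:**
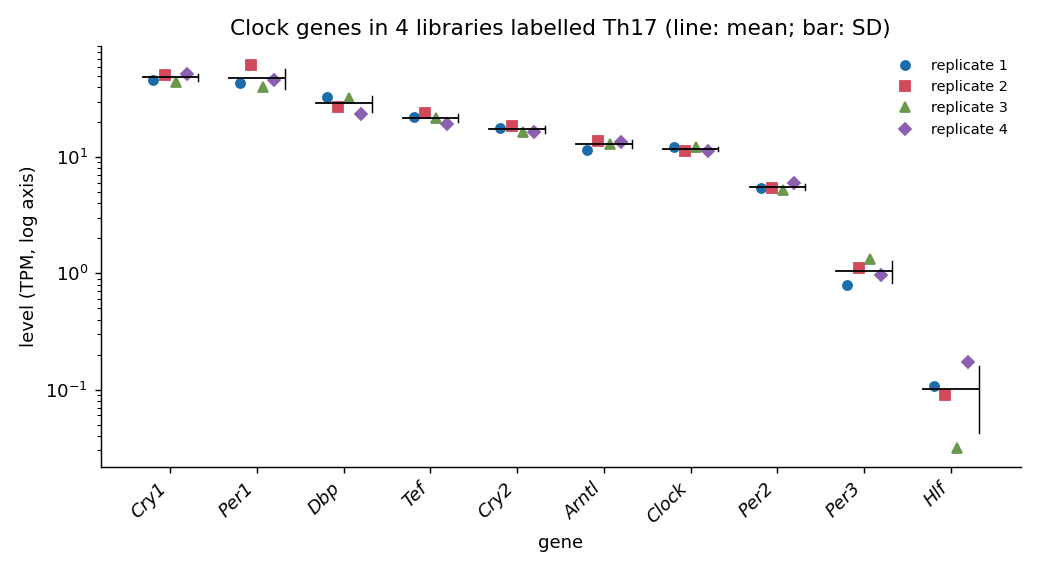
Level of each clock gene (TPM, log axis) in the 4 libraries, with symbols by replicate, the mean as a line and the SD as a bar. The genes run from Cry1 and Per1 near 48 TPM down to Hlf at 0.101 TPM, and the replicate 2 point of Per1 stands above the other 3.

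The balance between the output arm (Per1, Per2, Per3 and Dbp) and the activator arm (Arntl and Clock) was then taken in each library as a difference of mean log2(TPM + 0.1). It was -0.37, -0.29, -0.35 and -0.45 in replicates 1 to 4, a mean of -0.36 ± 0.07 (SD, n = 4). All 4 libraries were below 0, with replicate 2 highest and replicate 4 lowest. The activator arm spanned 3.58 to 3.67 and the output arm 3.20 to 3.37 on the same scale. Its sign rests on Per3, the least abundant gene of the output arm: without Per3 the ratio was 0.66 ± 0.09, and as the log2 ratio of arm means it was 0.75 ± 0.15. In summed TPM the output arm was 3.05 to 3.79 times the activator arm.

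Single genes of the output arm went different ways across the libraries. Dbp over Arntl was 2.91, 1.95, 2.48 and 1.71 as a ratio of TPM, whereas Per1 over Dbp was 1.32, 2.30, 1.25 and 1.97. Per1 was thus high relative to Dbp in replicates 2 and 4 and close to it in replicates 1 and 3, and the mean over the arm hides this. Replicate 2 had the highest arm ratio in the sum and in the mean, while with Dbp alone it was replicate 1, at 1.48, against 0.90 in replicate 4.

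**Figure D2:**
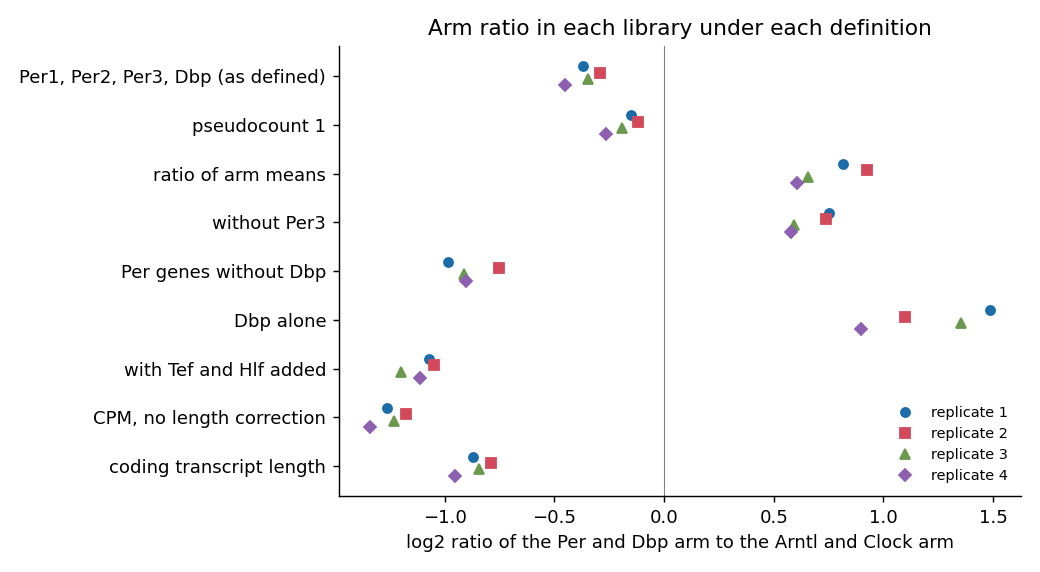
Log2 ratio of the Per and Dbp arm to the Arntl and Clock arm in each library, under the definition used and 8 others. Points right of 0 favour the Per and Dbp arm: the ratio is -0.36 on average as defined, and positive without Per3, with Dbp alone and as a ratio of arm means.

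Whether any clock gene varied between libraries more than genes of its abundance was tested with edgeR over 12464 genes. Of the 9 members past the count filter, all but Hlf, 0 were called at an adjusted p below 0.05 in the quasi-likelihood dispersion test, beside 0.193% of all genes tested (24 genes). At an unadjusted p below 0.05 it was 2 of 9, Per1 and Dbp, beside 5.34% of all genes, and DESeq2 called 0 of 9 as dispersion outliers, beside 0.866%. The members' median ratio of dispersion to trend was 1.49, against 0.871 over all genes tested, and their median SD of log2(CPM + 1) was 0.102, against 0.101. CPM is the count scaled to library size with TMM factors, with no division by gene length.

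Per1 had the largest ratio, 10.8 (edgeR adjusted p = 0.431). Its highest library exceeded its lowest 1.53-fold, and the 95% counting interval of replicate 2, 60.0 to 64.1 TPM, lay above that of replicate 4, 44.4 to 47.5 TPM. The coefficient of variation was 19.8%, where counting alone gives 1.86%. The call for Per1 depended on the libraries and the filter used. Its edgeR adjusted p was 0.0083 without replicate 4, and 0.00174 with all 4 libraries and no filter on low counts. Without replicate 2 the edgeR adjusted p was 0.991, so Per1 was not called, as in the main fit. Dbp followed with a ratio of 4.74 (edgeR adjusted p = 0.901) and a 1.43-fold range. For the other 7 members the ratio lay between 0.429 for Per2 and 1.64 for Per3. Clock was among the steadiest, with a coefficient of variation of 4.05% where counting gives 2.38%.

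**Figure D3:**
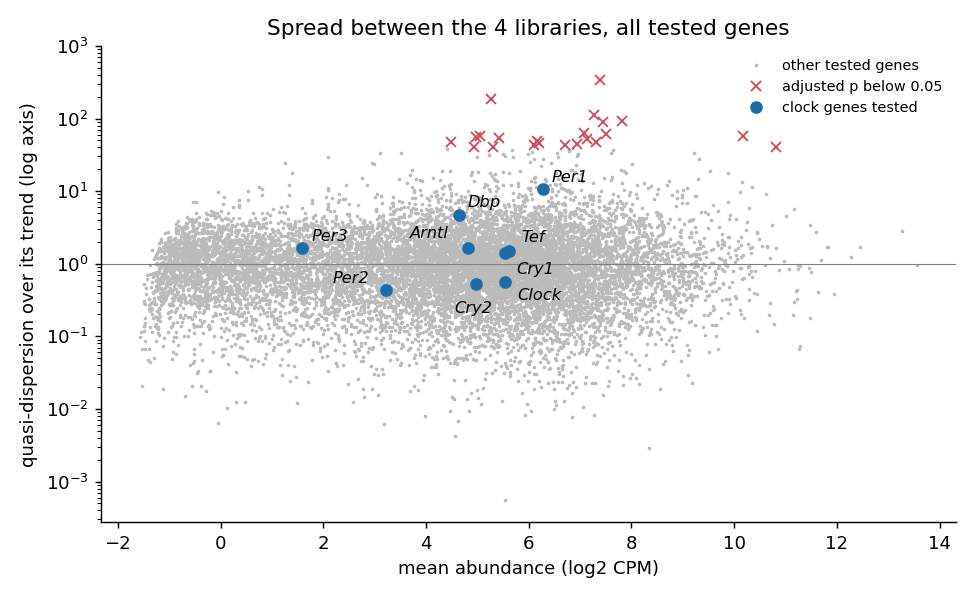
Quasi-dispersion of each tested gene over its trend (log axis) against mean abundance (log2 CPM), with genes of adjusted p below 0.05 as crosses and clock genes as large points. Per1, at 10.8, and Dbp, at 4.74, lie highest among the clock genes and below all crosses.

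Genes whose pattern over the 4 libraries was nearest to that of Per1, by the root mean square difference of log2(CPM + 1) deviations, were 1810010D01Rik (0.0301), Gm17249 (0.0307), Gm43062 (0.0352), Msantd1 (0.0379) and Mir8119 (0.0435). All 5 were highest in replicate 2, which follows from choosing them by nearness to Per1, and 4 of them were below 5 TPM in every library. Adding 1 to CPM shrinks the deviations of scarce genes. In TPM, 1810010D01Rik ran from 0.716 to 2.13 and Mir8119 from 9.27 to 23.4, wider ranges than that of Per1. Genes known to respond to glucocorticoids, as Per1 does in many mouse cells, were looked up after their values were seen. Tsc22d3, which encodes the leucine zipper protein GILZ, was at 439, 549, 349 and 404 TPM and ranked 49 of 12463 in nearness to Per1. Ddit4, an inhibitor of mTOR signalling, was at 735, 895, 609 and 651 TPM and ranked 68. Fkbp5, a cochaperone of the glucocorticoid receptor, was at 31.96, 47.2, 32.6 and 52.9 TPM, highest in replicate 4, and ranked 8232. Per1, Tsc22d3 and Ddit4 were thus each highest in replicate 2 and lowest in replicate 3, but none was called (edgeR adjusted p = 0.431, 0.425 and 0.539).

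Gene lists for inputs that act on Per1 gave these values beside it. The glucocorticoid list without Per1 had mean log2 deviations of -0.03, 0.11, -0.16 and 0.08 in replicates 1 to 4. Of its 7 genes 3 were highest in replicate 2, beside 18.7% of all genes tested, 2 in replicate 1 and 2 in replicate 4. For 11 immediate early genes the deviations were -0.02, 0.02, 0.16 and -0.17, and for 5 CREB target genes 0.22, -0.03, -0.07 and -0.11. The glucocorticoid list was thus highest in replicate 2, close to replicate 4, and it holds Tsc22d3 and Ddit4, named above for their nearness to Per1. The immediate early list was highest in replicate 3 and the CREB list in replicate 1. Heat shock genes had -0.50, -0.02, -0.28 and 0.80, with 11 of 11 highest in replicate 4, where Dbp was lowest, beside 29.4% of all genes tested. Of these 11 genes, 8 were called for spread by edgeR, beside 0.193% of all genes tested. Interferon-stimulated genes had 0.20, 0.44, -0.65 and 0.01, with 9 of 10 highest in replicate 2, beside 18.7% of all genes tested. Of these 10 genes, 2 were called by edgeR, beside the same 0.193%, and 9 had an unadjusted p below 0.05, beside 5.34% of all genes tested. The part of any of these in the spread of Per1 or Dbp was not tested.

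Dbp had a near match within the clock. Nr1d2, which encodes the receptor REV-ERB beta, was at 35.0, 31.0, 35.1 and 26.2 TPM, high where Dbp was high, and ranked 73 of 12463 in nearness to Dbp, with a root mean square difference of 0.0457 (looked up after its values were seen). The nearest genes of all, taken by the same measure as for Per1 but added after the data were seen, were Tab1 (0.00525), Erlec1 (0.0125), Fam120aos (0.0144), Gm45053 (0.0146) and Fbxo6 (0.0164). Of these, the scarce Gm45053 ran from 0.712 to 1.58 TPM, a wider range than that of Dbp, which adding 1 to CPM shrinks. The other clock genes looked up were further from Dbp. Clock ranked 2750, Tef, in the same family as Dbp, 3983, Ciart 5107, Nr1d1, the paralogue of Nr1d2, 5147 and Cry2 6141. Per2 ranked 9800, Per3 10247, Cry1 10485, Arntl 10586 and Per1 11996.

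**Figure D4:**
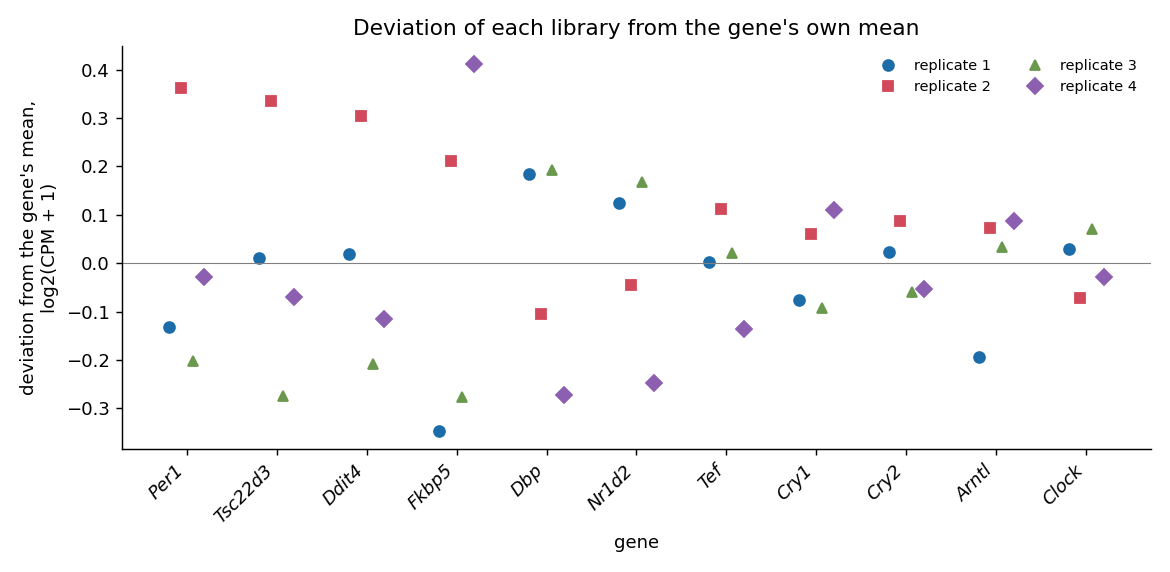
Deviation of each library from a gene's own mean, in log2(CPM + 1), for 8 clock genes and 3 glucocorticoid-responsive genes, with symbols by replicate. Per1, Tsc22d3 and Ddit4 share a high replicate 2 and a low replicate 3, Fkbp5 is highest in replicate 4, and Dbp and Nr1d2 share high replicates 1 and 3.

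The rest of the clock pathway was read from a list of 32 further genes, of which 25 reached 1 TPM in every library and 29 were tested for spread. By edgeR's dispersion test 0 of the 29 were called, beside 0.193% of all genes tested, and 4 had an unadjusted p below 0.05, beside 5.34%. The smallest adjusted p in that edgeR test was 0.282, for Timeless. In the second loop Nr1d2 was at 31.8 ± 4.21 TPM and Nr1d1 (REV-ERB alpha) at 4.32 ± 0.184 TPM. As a ratio of TPM + 0.1, Nr1d2 was 5.84-fold to 7.92-fold higher (exact sign-flip permutation p = 0.13, adjusted p = 0.141). Rora, an activator of Arntl, was at 2.47 ± 0.372 TPM, and Rorb had 0 counts in every library.

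The 4 listed repressors outside the Per, Cry and REV-ERB families were low or had no counts. Ciart, which binds BMAL1 and represses it, was at 4.62, 5.03, 4.14 and 2.63 TPM, lowest in replicate 4. Nfil3, the repressor at D-boxes, was at 1.48, 2.39, 3.06 and 2.56 TPM, lowest in replicate 1. Bhlhe40, an E-box repressor, was at 1.84, 1.54, 0.852 and 0.888 TPM, and its paralogue Bhlhe41 had 0 counts in every library. None of the 3 measured genes was called (edgeR adjusted p = 0.995 for Ciart and Nfil3 and 0.962 for Bhlhe40).

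Genes that modify or degrade PER and CRY proteins were mostly abundant. By edgeR 0 of 13 were called for spread, beside 0.193% of all genes tested, with 0 at an unadjusted p below 0.05, beside 5.34%. Of these 13 genes 12 reached 1 TPM in every library, with a median of 57.0 TPM, and the exception was Fbxl21 at 0.317 TPM. The highest were the deubiquitinase gene Usp7 at 176 ± 7.17, the casein kinase genes Csnk2b at 147 ± 6.22 and Csnk1d at 133 ± 7.16, and Csnk1a1 at 116 ± 4.28 TPM. All 5 genes for proteins found in PER or CRY complexes passed 1 TPM, led by Sfpq at 305 ± 55.8, Ddb1 at 264 ± 5.84, Nono at 219 ± 6.03 and Wdr5 at 71.4 ± 4.72 TPM. Timeless, which also works at replication forks, was at 48.2, 38.6, 42.1 and 28.1 TPM, lowest in replicate 4. Of the 5 genes edgeR called 0 for spread, beside 0.193% of all genes tested. At an unadjusted p below 0.05 it was 2 of 5, Sfpq and Timeless, beside 5.34%. Their ratios of dispersion to trend, 12.2 and 14.9, were above the 10.8 of Per1.

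Among genes that cycle in many mouse tissues, Tsc22d3 was at 435 ± 84.4, Nampt, for the rate-limiting enzyme of NAD salvage, at 32.7 ± 2.10, Leo1 at 17.0 ± 1.12 and the mitotic kinase gene Wee1 at 1.24 ± 0.451 TPM. Wee1, a classical E-box target in mouse liver, was lowest in replicate 4, at 0.611 TPM, as were Dbp, Tef, Ciart, Rora and Nr1d2. Others did not share this: Per2 and Cry1 were highest in replicate 4, Per1 was lowest in replicate 3 and Nr1d1 in replicate 2. The share of all tested genes that were lowest in replicate 4 was not computed, so the shared low has no background beside it. The spread of Wee1 did not pass the edgeR dispersion test (adjusted p = 0.966).

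**Figure D5:**
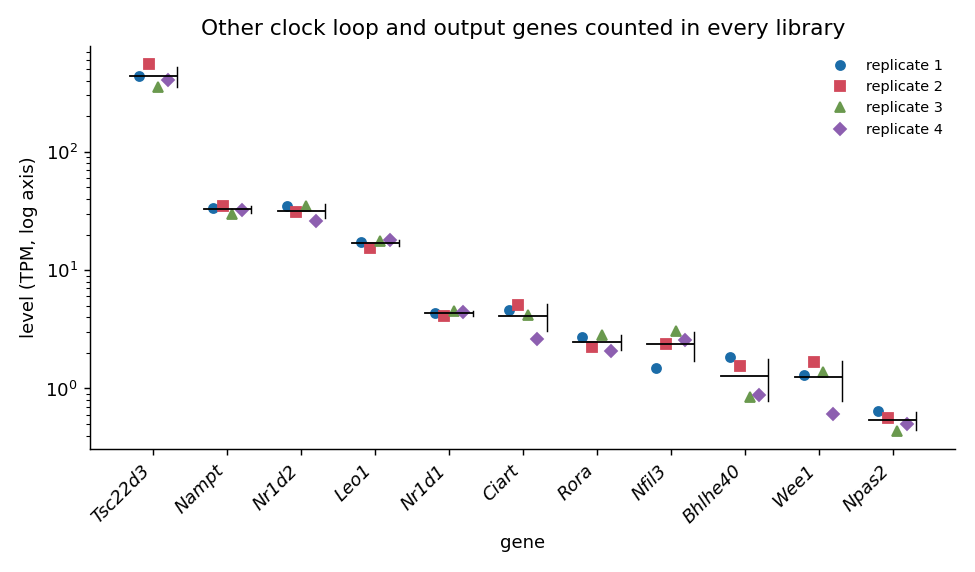
Levels (TPM, log axis) of the other clock loop and output genes counted in every library, with symbols by replicate, means as lines and SDs as bars. Nr1d2 at 31.8 TPM stands well above Nr1d1 at 4.32 TPM, and replicate 4 is the lowest point for Nr1d2, Ciart, Rora and Wee1.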

How the data were processed

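Total RNA, per the labels, was sequenced in 4 libraries; the library protocol they point to has poly(A)+ in its title. Per the file headers, the deposited tables hold raw counts of fragments, made with featureCounts 1.4.6-p4 over GENCODE M13 exons (mm10 per the labels), in pairs with both ends mapped and reverse strand. Fragments shared by several genes were left out by that setting, and no member shares exon bases with another gene on its strand. For the aligner, a version is not given here.

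Symbols came from GENCODE M21 and matched 50376 of 50600 IDs. TPM was computed from counts and union exon length. Totals were 29041979, 35018552, 48808978 and 45490373 in replicates 1 to 4. Any 2 libraries differed by more than counting noise (chi-square per degree of freedom of 9.60 or more), so no library was merged with another as a duplicate; this does not show separate animals. Limits of 3 counts for a count of 0 and 95% Poisson intervals cover counting error only.

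Spread was tested with edgeR 4.0.16 (R 4.3.3; TMM, filterByExpr, intercept only, robust): a gene's quasi-dispersion over the prior trend, one-sided F test, Benjamini-Hochberg over all genes tested. Gene pairs were tested by exact sign-flip permutation (two-sided) on the 4 within-library log2 ratios of TPM + 0.1. Alternatives covered pseudocounts, filters, scaling, DESeq2 1.42.0, length and each replicate left out. Named genes were the members, all genes of the 4 lists for activator paralogues, nuclear receptors, other repressors and outputs, the 4 highest of the turnover and complex lists, up to 3 of other lists, and the 5 nearest to the member of largest relative spread; Fbxl21, Timeless, Fkbp5, Il22, Il23r, the Dbp neighbours and some markers, which fall outside this rule, were chosen after their values were seen. The members and lists were chosen with earlier results of these data known. Python 3.11.15 with pandas 2.3.3 and scipy 1.17.1 did the other steps.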

Additional observations from a re-analysis of the deposited data

Results flagged for a closer look

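Of 20 values examined over the 4 libraries (the 10 levels, the arm ratio and 9 gene pair ratios), 1 had a library far from the others. The log2 ratio of Per1 to Per2 was 3.48 in replicate 2, against 2.99, 2.94 and 2.90 in replicates 1, 3 and 4. The gap took up 0.85 of the whole range, above Dixon's 95% critical value for 4 samples. Chance flags about 1 in 20 groups. Per1 was at 62.0 TPM in that library and Per2 at 5.47 TPM, within the range of Per2 in the others.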

How the results depend on the processing

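The arm ratio of -0.36 turned positive without Per3 (0.66), with Dbp alone (1.21) and as a log2 ratio of arm means (0.75). It moved to -0.18 with a pseudocount of 1, -0.89 for the Per genes without Dbp, -1.11 with Tef and Hlf added, -1.25 as CPM without length correction and -0.86 with coding transcript length, which was added after the data were seen. These definitions weigh scarce genes or transcript lengths differently by construction. Leaving out each replicate gave -0.39 to -0.33. The count of members called for spread, 0, was 1 (Per1) without a filter on low counts, where edgeR called 349 of 21421 genes, and 0 to 1 when each replicate was left out, the 1 being Per1 without replicate 4. Over all genes the 24 calls became 5 without the robust fit, 6 among protein-coding genes alone, 10 at a mean CPM of 5 or more, 108 by DESeq2 and 30, 13, 7 and 86 without replicates 1, 2, 3 and 4. Of 54 alternatives for the 9 pair ratios, 54 kept their direction, and none could reach the threshold, since the exact test on 4 libraries gives p = 0.13 at its smallest. Of 60 alternatives for mean TPM, 10 moved by more than 1 SD, all through length or the TPM total. Depth limits Hlf (30 counts), Arntl2 (23) and, less so, Per3 (474). No paired analysis was possible because there is 1 group.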

Other observations

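CREB target genes were highest in replicate 1 in 5 of the 5 tested, beside 27.0% of all genes tested. For spread edgeR called 0 of the 5, beside 0.193% of all genes tested, with 0 at an unadjusted p below 0.05, beside 5.34%. Nr4a3, an orphan nuclear receptor gene, was at 14.8, 10.7, 10.7 and 11.2 TPM in replicates 1 to 4, and Pde4d, a cAMP phosphodiesterase gene, at 30.1, 27.8, 28.4 and 23.3 TPM. Il17f, a Th17 cytokine gene, was also highest in replicate 1, at 14.4 TPM against 9.21, 7.69 and 8.03 TPM.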
